A study of Homo sapiens with 8 samples.

Results

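The 41 genes described here are the Fanconi anemia, homologous recombination and DNA damage checkpoint genes of a list of names, which were looked up among the 34809 gene names of an Agilent expression array. All 41 names were found, with 51 probes among them, and the brightest probe of each gene stood for it. RNA came from HuCCT1, an established human intrahepatic cholangiocarcinoma cell line, in 4 sublines that carried a short hairpin RNA vector and that were measured on 2 single-colour arrays each. The vectors shControl and shNontarget served as control, and the vectors shBEX2-1 and shBEX2-2 carried hairpins that knock down BEX2, an X-linked gene of the brain expressed X-linked family. No age, drug or time point separates the groups, and all 4 carry a vector. The sources used here do not say whether a subline is 1 clone, or whether its 2 arrays held RNA of separate cultures, so that p-values measure the spread between these arrays, which may be technical.

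Cells repair crosslinked or broken DNA in S and G2 phase with a shared set of proteins. The Fanconi core complex places ubiquitin on the FANCD2 and FANCI pair at a stalled fork, nucleases resect the DNA ends, BRCA1, BRCA2 and their partners carry out homologous recombination, and helicases and nucleases resolve the joined strands. The kinases ATM and ATR and their effectors CHEK1 and CHEK2 hold the cell cycle meanwhile. Many of these genes are transcribed in proliferating cells under E2F transcription factors, and BRCA1, BRCA2 and PALB2 are known as cancer predisposition genes.

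Upstream sequences are printed for 6 members that were higher in the knockdown and for FANCC, which did not pass the test. They were picked among members that hold a marked word before the annotated start, so they are not typical of the members. BRCA1 and BRCA2, for instance, were higher in the knockdown and held no marked word. The stretch begins 180 bases before the annotated start, runs 5′ to 3′ on the gene's strand, and ends at the start or at the end of a word that crosses it. Capitals mark the E2F words (TTTCCCGC, TTTCGCGC, TTTGCCGC or TTTGGCGC) and the word CCAAT on either strand, and the sequences are those of RefSeq on GRCh38.p14. The stretches lie at chr16:89816648-89816827 for FANCA, chr9:95317710-95317889 for FANCC, chr3:10026257-10026442 for FANCD2, chr17:61863529-61863708 for BRIP1, chr1:46247508-46247690 for RAD54L, chr15:90717166-90717345 for BLM and chr3:133661941-133662121 for TOPBP1, of which FANCD2, RAD54L and BLM are on the plus strand.
FANCA: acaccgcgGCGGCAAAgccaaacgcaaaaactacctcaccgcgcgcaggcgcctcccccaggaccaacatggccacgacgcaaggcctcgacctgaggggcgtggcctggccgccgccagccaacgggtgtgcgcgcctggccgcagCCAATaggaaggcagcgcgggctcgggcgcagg
FANCC: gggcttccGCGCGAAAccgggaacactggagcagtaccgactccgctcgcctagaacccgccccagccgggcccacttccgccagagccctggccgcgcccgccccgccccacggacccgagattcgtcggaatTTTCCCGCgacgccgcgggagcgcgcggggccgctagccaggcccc
FANCD2: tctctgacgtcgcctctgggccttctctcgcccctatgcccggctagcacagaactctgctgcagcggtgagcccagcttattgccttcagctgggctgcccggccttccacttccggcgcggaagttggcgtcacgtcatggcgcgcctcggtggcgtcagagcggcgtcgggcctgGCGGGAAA
BRIP1: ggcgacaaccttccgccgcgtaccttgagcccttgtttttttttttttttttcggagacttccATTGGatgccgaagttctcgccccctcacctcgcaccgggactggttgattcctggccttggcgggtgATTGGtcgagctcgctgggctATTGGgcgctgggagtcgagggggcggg
RAD54L: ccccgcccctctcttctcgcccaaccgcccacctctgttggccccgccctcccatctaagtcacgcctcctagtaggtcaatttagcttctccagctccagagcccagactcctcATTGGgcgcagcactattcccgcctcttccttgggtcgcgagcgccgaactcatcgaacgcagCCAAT
BLM: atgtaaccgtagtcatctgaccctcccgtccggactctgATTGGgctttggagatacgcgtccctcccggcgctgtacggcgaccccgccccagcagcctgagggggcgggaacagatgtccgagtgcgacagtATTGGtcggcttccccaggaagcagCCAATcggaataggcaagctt
TOPBP1: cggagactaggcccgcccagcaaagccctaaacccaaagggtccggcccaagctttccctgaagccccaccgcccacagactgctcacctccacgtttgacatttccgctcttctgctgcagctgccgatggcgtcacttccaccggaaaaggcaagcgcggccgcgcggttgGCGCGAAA

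The promoter table had 36 of the 41 members, and those not in it were FANCI, RAD54B, NBN, DNA2 and WRN. In windows of 300 bases that end 50 bases past the start, an E2F word was present in 6 of 24 members that were higher in the knockdown and in 1 of 12 that did not pass the test, against 3.31% of all 35116 promoters. The 6 were FANCA, FANCD2, XRCC2, EXO1, GEN1 and TOPBP1, and the remaining one was FANCC, which held a pair of words. CCAAT was present in 12 of the 24 and in 5 of the 12, against 34.6% of all promoters, and XRCC3 held 5 copies and BRIP1, BLM and CHEK2 3 each. The cell cycle homology word TTTGAA was present in 1 of the 24, BRIP1, and in 2 of the 12, FANCC and ATM, against 15.2% of all promoters. CCAAT and the E2F words share no overlapping match in the printed stretches. A match describes the letters of these windows and does not show a binding site.

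BEX2, the targeted gene, was lower in the knockdown with both hairpins together, and taken alone shBEX2-1 passed the test and shBEX2-2 did not. BEX2 measured -3.36 and -3.91 with shControl, -2.70 and -3.77 with shNontarget, -5.21 and -5.54 with shBEX2-1, and -4.92 and -4.60 with shBEX2-2, as log2 intensity minus the 75th percentile of the array, the scale of all levels below. The 4 knockdown arrays lay below all 4 control arrays, with a log2 fold change of -1.63 ± 0.32 (SE, adjusted p = 0.0116, limma) and an exact two-sided permutation p of 0.0286, the smallest that 70 relabellings allow. The relabelling treats the 8 arrays as independent, though each subline gave 2 of them. Its probe was well above background on the 4 control and the 2 shBEX2-2 arrays and not on either shBEX2-1 array, so that the level of shBEX2-1 is a bound, at least 3.83-fold below the controls, and the fold change of the pooled knockdown rests in part on arrays near background. By subline the log2 fold change was -1.94 (adjusted p = 0.0336, limma) with shBEX2-1 and -1.32 (adjusted p = 0.0812) with shBEX2-2. The biliary epithelial markers KRT7, KRT19, KRT8, KRT18, EPCAM and SOX9 were well above background on all 8 arrays. Of the 5 hepatocyte markers, ALB and TTR were so on 0 arrays, CYP3A4 on 1, APOA1 on 6 and SERPINA1 on 8. Of the 5 fibroblast markers, COL1A2 and COL3A1 were on 0, PDGFRB on 1, DCN on 2, both of the knockdown, and COL1A1 on 8. Of the 3 endothelial markers, PECAM1 was on 0 and VWF and CDH5 on 8, and of the 4 leukocyte markers CD3E was on 3, PTPRC on 7 and CD14 and CD68 on 8. The scanner software rated 59.8% to 64.6% of the 58717 spots per array as well above background and 0 as saturated. The arrays lay on 1 slide, controls in row 1 and knockdown in row 2, so that row and group cannot be told apart. The pair of shNontarget arrays disagreed, with 34.9% of all genes differing by over 1 on the log2 scale between them, against 0.562% to 1.76% for the other vectors. Counts of members are therefore also given without these 2 arrays, as are the values of the members whose call changed when both were left out.

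Of the 41 members, 27 were higher in the knockdown and 0 were lower, at a Benjamini-Hochberg adjusted p under 0.05 over all 20464 genes tested (limma). Over all genes, 6.68% were called higher and 6.25% lower. This fit treats the 8 arrays as independent, though each subline gave 2 of them. The median log2 fold change of the members was 1.02, with a range from -0.40 to 2.14, beside 0.027 over all genes. At an unadjusted p under 0.05, 31 members passed, beside 27.8% of all genes, among them RAD50 as the only one with a lower level in the knockdown. All 4 knockdown arrays lay above all 4 control arrays for 25 members and below them for 2, RAD50 and MUS81, while 11.4% and 10.6% of all genes did so. Every member was tested, and its probe was well above background on all 8 arrays, so that none entered through 1 group alone. Since each array held RNA of a whole culture, more cells expressing a gene and more RNA per cell cannot be told apart.

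**Figure D1:**
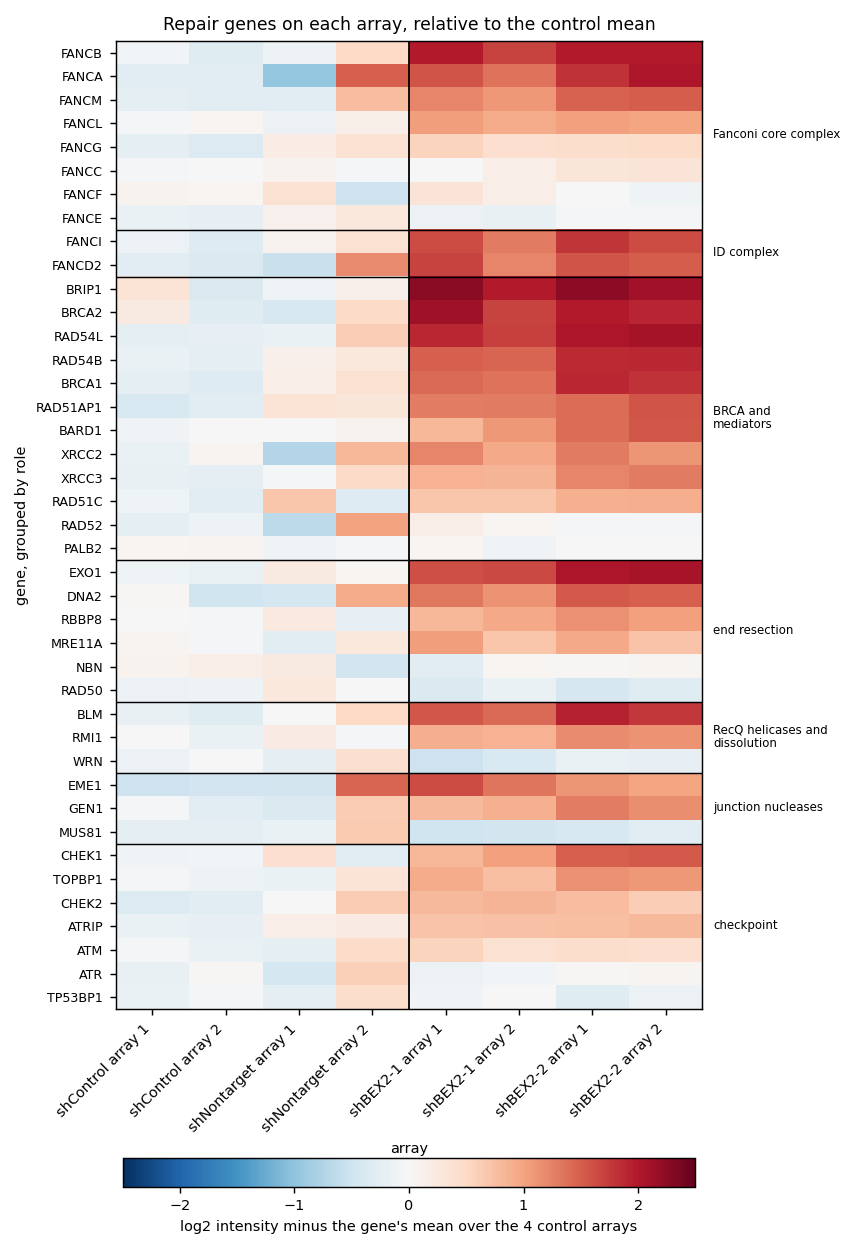
Heat map of the 41 repair genes (rows, grouped by role) on the 8 arrays (columns), coloured by log2 intensity minus the gene's mean over the 4 control arrays; the vertical line divides control from BEX2-knockdown arrays. Most rows are redder on the 4 knockdown arrays, and shNontarget array 2 is redder than the other control arrays in rows such as FANCA, FANCD2 and EME1.

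The median of the 41 levels on each array differed between the groups. It was -0.92 and -0.99 with shControl, -0.81 and -0.30 with shNontarget, -0.02 and 0.04 with shBEX2-1, and 0.35 and 0.28 with shBEX2-2. The shNontarget array at -0.30 was the nearest control to the knockdown arrays. Within replicate 1 of the 4 vectors, which the submitters tie to a common day, 35 of the 41 members were higher in the knockdown with a median log2 difference of 1.13, and within replicate 2 33 were, with a median of 0.86. All 27 called members were higher within both, but they had been called from these same arrays, so that this is no separate support.

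Cell cycle markers moved with the members. Of 8 markers, 7 rose in the knockdown, beside 6.68% of all genes, and the median log2 fold change of the 8 was 1.54. MKI67, a nuclear antigen of cycling cells, rose by 1.94 ± 0.23 (SE), CCNA2, cyclin A2, by 1.96 ± 0.24 and PCNA, the sliding clamp of replication, by 1.59 ± 0.22. TOP2A, topoisomerase II alpha, was 0.81 ± 0.24 (adjusted p = 0.057, limma) and did not pass. The median level of the 8 markers ranged from 0.43 to 1.25 on the control arrays and from 2.29 to 2.66 on the knockdown arrays. Whether the members rose apart from these markers was not tested. Among 23 cell type markers, 14 were tested and 3 rose, KRT8 with 1.02, CD14 with 0.54 and CD68 with 0.99, and the summed leukocyte markers PTPRC, CD3E, CD14 and CD68 ranged from -0.45 to -0.12 on the control and from 0.30 to 0.71 on the knockdown arrays (log2 of the sum). Their part in the result was not tested.

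Of the 8 Fanconi core complex genes, 4 rose. FANCB, a core scaffold subunit encoded on the X chromosome, measured -3.35 and -3.57 with shControl, -3.39 and -2.78 with shNontarget, -1.28 and -1.58 with shBEX2-1, and -1.30 and -1.29 with shBEX2-2, by a probe at chrX:14862037-14862096 (hg19). Its 4 knockdown arrays lay above all control arrays, with shBEX2-1 array 2 the lowest of them. The log2 fold change was 1.91 ± 0.19 (SE, adjusted p = 0.00103), or 3.76-fold. FANCA, the subunit most often mutated in Fanconi anemia, measured -2.60 and -2.60 with shControl, -3.32 and -0.85 with shNontarget, -0.77 and -0.99 with shBEX2-1, and -0.54 and -0.31 with shBEX2-2, by a probe at chr16:89877116-89877175. Here the groups overlapped, since shNontarget array 2 lay above shBEX2-1 array 2, and shNontarget array 1 was the lowest of all. Its log2 fold change of 1.69 ± 0.45 had an adjusted p of 0.0411, and its other probes gave 1.41 and 1.97. The call was lost when any 1 array other than the shNontarget arrays was left out, with an adjusted p of up to 0.113 (limma). FANCM, the translocase that anchors the complex to DNA, rose by 1.32 ± 0.24 and FANCL, its ubiquitin ligase subunit, by 0.99 ± 0.11. The remaining subunits did not pass the test. FANCG gave 0.47 ± 0.17 (adjusted p = 0.11), with its 4 knockdown arrays above the controls. It passed against shControl alone at 0.75 (adjusted p = 0.000701) and without shNontarget array 2 at 0.59 (adjusted p = 0.0201). These fits called 17.2% and 10.5% of all genes higher. Under other alternatives its value fell as low as 0.18 and its adjusted p reached 0.582 (limma). FANCC gave 0.20, FANCF 0.09 and FANCE -0.10. A second FANCF probe gave -0.45 ± 0.22, of the other sign (limma over all probes, adjusted p = 0.229).

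Both genes of the ID complex, the pair that is monoubiquitinated, rose. FANCI measured 0.52 and 0.35 with shControl, 0.76 and 1.05 with shNontarget, 2.30 and 1.98 with shBEX2-1, and 2.45 and 2.31 with shBEX2-2, by a probe at chr15:89858528-89858587. All knockdown arrays lay well above the highest control array, with a log2 fold change of 1.59 ± 0.18 (SE, adjusted p = 0.00133). FANCD2 measured -1.15 and -1.24 with shControl, -1.44 and 0.30 with shNontarget, 0.81 and 0.34 with shBEX2-1, and 0.70 and 0.64 with shBEX2-2, and its log2 fold change was 1.503 ± 0.35 (adjusted p = 0.0228). The lowest knockdown array was just above shNontarget array 2, which stood apart from the other controls. The call was lost without any 1 of the shControl and shBEX2-2 arrays or without shBEX2-1 array 1, with an adjusted p of up to 0.0715 (limma). The array design places this probe at chr3:11932588-11932647, while it places the other FANCD2 probes at chr3:10143006-10143065 and chr3:10140927-10140986. RefSeq lists a pseudogene, FANCD2P2, on the same chromosome, and which copy the probe measured was not tested. These other probes gave log2 fold changes of 0.86 ± 0.34 (limma over all probes, adjusted p = 0.138) and 1.58 ± 0.39 (adjusted p = 0.0287), the latter on a probe well above background on 5 arrays.

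The BRCA genes and recombination mediators held the member with the largest change, and 10 of 12 rose. BRIP1, a helicase that binds BRCA1, measured -3.01 and -3.69 with shControl, -3.44 and -3.22 with shNontarget, -1.09 and -1.36 with shBEX2-1, and -1.11 and -1.24 with shBEX2-2, by a probe at chr17:59760908-59760967. All knockdown arrays were above all control arrays, by a log2 fold change of 2.14 ± 0.18 (SE, adjusted p = 0.000621) or 4.42-fold, the largest of the 41 members. BRCA2, a mediator of homologous recombination, measured -3.62 and -4.14 with shControl, -4.25 and -3.38 with shNontarget, -1.74 and -2.17 with shBEX2-1, and -1.86 and -1.95 with shBEX2-2, by a probe at chr13:32972996-32973055. The groups were again apart, and the log2 fold change was 1.92 ± 0.23 (adjusted p = 0.00156). The recombination motor RAD54L rose by 1.92 ± 0.20 and its paralog RAD54B by 1.68 ± 0.17. BRCA1, a ubiquitin ligase that promotes resection, rose by 1.62 ± 0.20, and its ring partner BARD1 by 1.21 ± 0.17. RAD51AP1, which aids strand pairing, rose by 1.39 ± 0.20. Of the recombination mediators XRCC2, XRCC3 and RAD51C, XRCC2 rose by 1.14 ± 0.29, XRCC3 by 1.06 ± 0.19 and RAD51C by 0.79 ± 0.22 (adjusted p = 0.0446). The arrays of RAD51C overlapped between groups. Its call was lost without any 1 array other than shNontarget array 1 (adjusted p up to 0.127, limma), and that of XRCC2 without any 1 of the shControl, shBEX2-1 and shBEX2-2 arrays (adjusted p up to 0.102). PALB2, the link between BRCA1 and BRCA2, gave -0.01 ± 0.13 (adjusted p = 0.961), with all 8 arrays between -2.57 and -2.39. RAD52, which anneals single strands, was at 0.04 ± 0.31, with the shNontarget arrays at -1.93 and -0.28, the lowest and the highest of the 8.

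**Figure D2:**
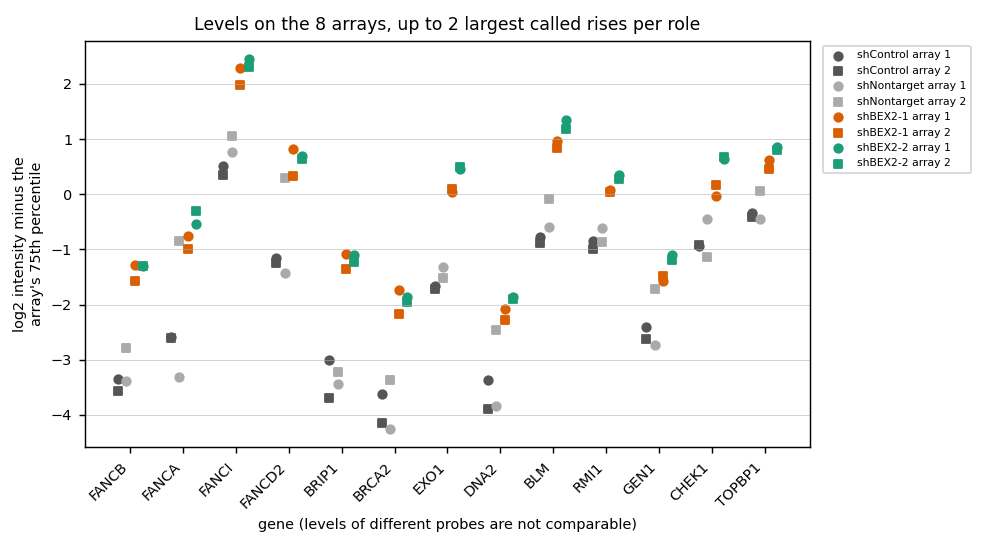
Level on each of the 8 arrays (y axis, log2 intensity minus the array's 75th percentile; circles are array 1 and squares array 2 of a vector) for up to 2 members per role with the largest called rise. Orange and green knockdown points lie above all grey control points for every gene shown except FANCA, where shNontarget array 2 at -0.85 is above the lower shBEX2-1 array.

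Of the 6 end resection genes, 4 rose. EXO1, an exonuclease of long-range resection, measured -1.67 and -1.73 with shControl, -1.33 and -1.51 with shNontarget, 0.04 and 0.09 with shBEX2-1, and 0.46 and 0.49 with shBEX2-2, by a probe at chr1:242048717-242048776. Knockdown and control arrays were far apart, and the log2 fold change was 1.83 ± 0.16 (SE, adjusted p = 0.000692). DNA2, the nuclease and helicase of the alternative resection path, measured -3.37 and -3.90 with shControl, -3.83 and -2.47 with shNontarget, -2.08 and -2.28 with shBEX2-1, and -1.86 and -1.90 with shBEX2-2, by a probe at chr10:70174746-70174805. Its groups did not overlap, but shNontarget array 2 lay close to the lowest knockdown array, and the log2 fold change was 1.36 ± 0.31 (adjusted p = 0.0202). The adjusted p rose to as much as 0.0699 (limma) when an shControl array, an shBEX2-2 array or shBEX2-1 array 1 was left out. RBBP8, or CtIP, which starts resection, rose by 0.98 ± 0.13. Of the MRN complex, which senses broken ends, MRE11A rose by 0.85 ± 0.15, while NBN was at -0.04 ± 0.18 and RAD50 at -0.31 ± 0.13 (adjusted p = 0.166), with all its knockdown arrays below the control arrays. The array design places the MRE11A probe on chromosome 3, while the gene lies on chromosome 11, and whether its signal includes a copy of the gene elsewhere was not tested.

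Of the genes that dissolve joined strands, BLM and RMI1 rose and WRN did not pass. BLM, the RecQ helicase of Bloom syndrome, measured -0.77 and -0.89 with shControl, -0.59 and -0.08 with shNontarget, 0.96 and 0.83 with shBEX2-1, and 1.35 and 1.19 with shBEX2-2, by a probe at chr15:91358495-91358554. The knockdown arrays were above all control arrays, with a log2 fold change of 1.66 ± 0.20 (SE, adjusted p = 0.00162). RMI1, its partner in the dissolvasome, measured -0.84 and -0.997 with shControl, -0.62 and -0.87 with shNontarget, 0.07 and 0.04 with shBEX2-1, and 0.35 and 0.28 with shBEX2-2, by a probe at chr9:86618846-86618905, and the groups were likewise apart. The log2 fold change of RMI1 was 1.02 ± 0.13 (adjusted p = 0.00254), the median of the members. WRN, the RecQ helicase of Werner syndrome, gave -0.31 ± 0.17 (adjusted p = 0.272), with shNontarget array 2 the highest array. Among the nucleases that cut joined strands, GEN1 measured -2.40 and -2.63 with shControl, -2.72 and -1.73 with shNontarget, -1.56 and -1.47 with shBEX2-1, and -1.10 and -1.20 with shBEX2-2, by a probe at chr2:17963080-17963139. Its groups did not overlap, and the log2 fold change was 1.04 ± 0.23 (adjusted p = 0.0203). Without an shControl or an shBEX2-2 array it did not pass (adjusted p up to 0.0731, limma). EME1 and MUS81, the subunits of 1 nuclease, did not pass the test, and their values had opposite signs. EME1 measured -2.90 and -2.85 with shControl, -2.83 and -0.92 with shNontarget, -0.75 and -1.05 with shBEX2-1, and -1.28 and -1.38 with shBEX2-2, with shNontarget array 2 among the knockdown arrays, and a log2 fold change of 1.26 ± 0.42 (adjusted p = 0.0857). Against shControl alone EME1 passed at 1.76 (adjusted p = 0.000561), and without shNontarget array 2 at 1.75 (adjusted p = 0.000924). These fits called 17.2% and 10.5% of all genes higher. Under other alternatives the value of EME1 fell as low as 0.76 and its adjusted p reached 0.471 (limma). MUS81 gave -0.40 ± 0.21 (adjusted p = 0.241).

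Of the 7 checkpoint genes, 4 rose. CHEK1, the effector kinase of ATR, measured -0.94 and -0.93 with shControl, -0.45 and -1.13 with shNontarget, -0.02 and 0.16 with shBEX2-1, and 0.64 and 0.67 with shBEX2-2, by a probe at chr11:125525158-125525217. The lowest knockdown array was above the highest control array, and the shBEX2-2 arrays were the highest, with a log2 fold change of 1.22 ± 0.21 (SE, adjusted p = 0.00687). TOPBP1, which activates ATR, measured -0.34 and -0.41 with shControl, -0.45 and 0.05 with shNontarget, 0.63 and 0.46 with shBEX2-1, and 0.86 and 0.80 with shBEX2-2, by a probe at chr3:133329907-133329966. Its groups were apart, and its log2 fold change was 0.98 ± 0.15 (adjusted p = 0.0049). ATRIP, which holds ATR on single-stranded DNA, rose by 0.75 ± 0.16, and did not pass without an shControl or an shBEX2-2 array (adjusted p up to 0.0556, limma). A second ATRIP probe gave 0.72 ± 0.24 and did not pass (limma over all probes, adjusted p = 0.0808). CHEK2, the effector kinase of ATM, rose by 0.76 ± 0.22, at an adjusted p of 0.0491 with overlapping arrays, and did not pass with the replicate number as a block (adjusted p = 0.061) or without any 1 of the arrays other than the shNontarget arrays (adjusted p up to 0.137). The design places this CHEK2 probe on a chromosome other than 22, where it places the second probe, which gave 1.58 ± 0.29 (limma over all probes, adjusted p = 0.00919). The kinases themselves did not pass over all 8 arrays. ATM was at 0.45 ± 0.17 (adjusted p = 0.122), and its second probe gave 0.20. It passed against shControl alone at 0.56 (adjusted p = 0.00435) and without shNontarget array 2 at 0.60 (adjusted p = 0.00667). These fits called 17.2% and 10.5% of all genes higher. Under other alternatives the value of ATM fell as low as 0.32 and its adjusted p reached 0.486 (limma). ATR was at -0.03 ± 0.21, and its second probe gave 0.42 ± 0.28. TP53BP1, which shields ends from resection, was at -0.13 ± 0.17. The probes of RAD50 and TP53BP1 have no genome position in the array design.

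**Figure D3:**
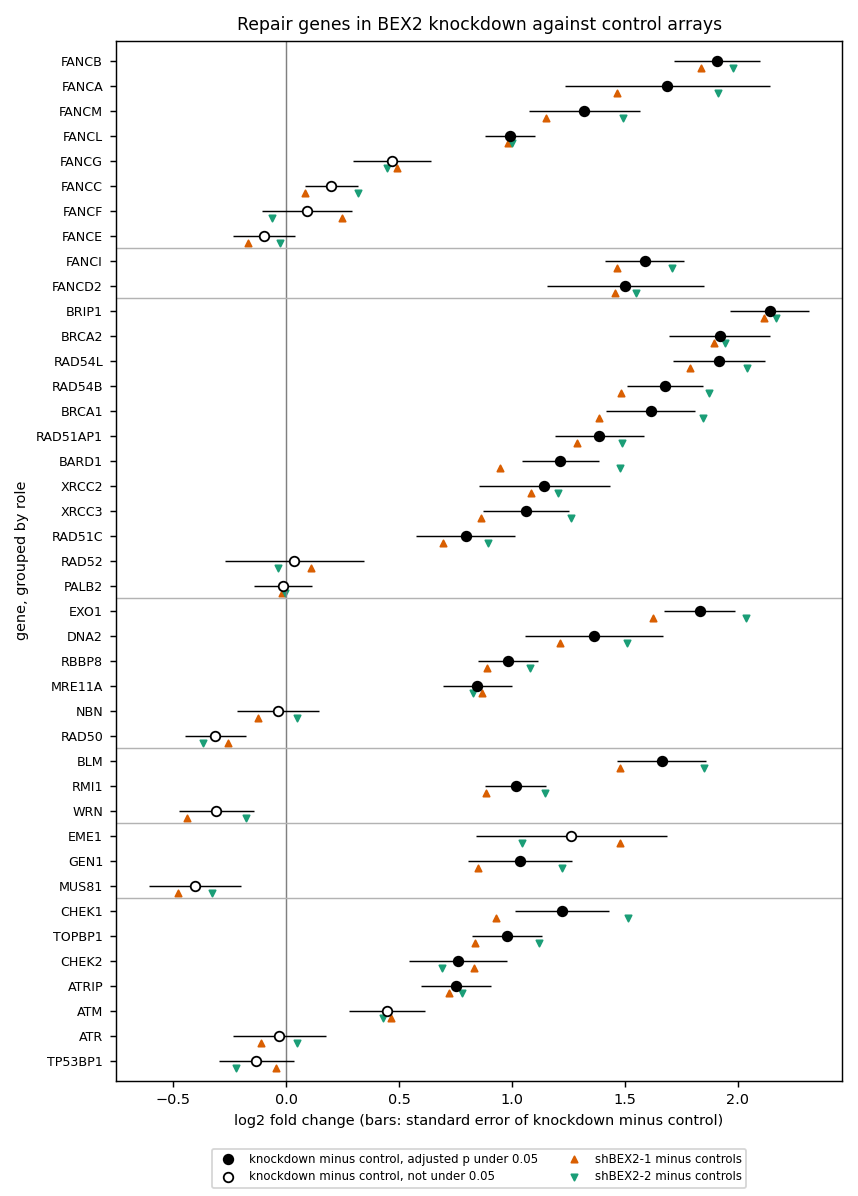
Log2 fold change (x axis) of each repair gene, grouped by role. Circles are knockdown minus control with the standard error as bar, filled where the adjusted p was under 0.05; triangles are the sublines shBEX2-1 (upward) and shBEX2-2 (downward) against the same control arrays. The 27 filled circles all lie to the right of 0, from 0.75 for ATRIP to 2.14 for BRIP1.

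The hairpins were then taken one at a time, against the mean of both control vectors, which the comparisons share. The target sequences that the study prints for its BEX2 hairpins are reverse complements of each other over nearly their whole length. Likeness between the hairpins is therefore not likeness between separate target sites. In shBEX2-1 cells 18 members were higher and 0 lower, beside 3.38% and 3.59% of all genes, and the median of the members was 0.89. In shBEX2-2 cells 20 were higher and 0 lower, beside 4.85% and 4.81% of all genes, and the median was 1.12. For BRIP1 the log2 fold change was 2.12 in shBEX2-1 and 2.17 in shBEX2-2 cells, and for BRCA2 it was 1.90 and 1.94. EXO1 was at 1.63 and 2.04, and CHEK1 at 0.93 and 1.52. Leaving out shControl array 1 or array 2 left 0 members higher in shBEX2-1 cells, beside 0% of all genes, and 11 in shBEX2-2 cells, beside 1.38% and 1.24%. Leaving out either shBEX2-2 array left 6 in shBEX2-1 cells, beside 0.479%, and 0 in shBEX2-2 cells, beside 0%. Without an shBEX2-1 array the counts were 0, beside 0%, and 17, beside 2.29% and 2.30%. Without shNontarget array 1 they were 31 and 31, beside 26.7% and 24% of all genes, without shNontarget array 2 they were 31 and 33, beside 29.8% and 29.4%, and without both 31 and 31, beside 22.8% and 21.6% of all genes called higher. Members were also called lower without shNontarget array 1, 5 in each subline, beside 26.2% and 27.5% of all genes, and without array 2, 3 in shBEX2-1 and 2 in shBEX2-2 cells, beside 22.8% and 25.1%. With both out, 0 were lower in shBEX2-2 cells, beside 22.5% of all genes, and 2 in shBEX2-1 cells, beside 20.8%. These were WRN and MUS81, at -0.36 and -0.24 (adjusted p = 0.0134 and adjusted p = 0.0305, limma).

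Set against each other, the sublines differed in 0 members over all 8 arrays (limma), beside 0.00977% of all genes, and in 5 at an unadjusted p under 0.05, beside 7.29% of all genes. Of the 41 members, 32 were lower in shBEX2-1 than in shBEX2-2 cells, with a median log2 difference of -0.17. The 5 were CHEK1 (-0.59 ± 0.23, SE), BARD1 (-0.53 ± 0.16), BRCA1 (-0.46 ± 0.14), EXO1 (-0.41 ± 0.14) and RAD54B (-0.39 ± 0.14), all lower in shBEX2-1 cells. The differences did not change with the shNontarget arrays left out, but the estimate of the spread did, and 10 members then passed the adjusted threshold, 9 lower and 1 higher in shBEX2-1 cells, beside 14.5% of all genes. These were the 5 named with FANCA, FANCM, XRCC3 and BLM, and FANCF as the higher one at 0.31. With only shNontarget array 1 left out, and with only array 2 left out, the median log2 difference of the members was -0.17 as well.

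The control vectors were compared as a background. Between shNontarget and shControl 0 members passed (limma), beside 0% of all genes, and 8 did at an unadjusted p under 0.05, beside 7.66% of all genes. Of the 41 members, 36 were higher in shNontarget cells, with a median log2 difference of 0.29, and the median of the 8 cell cycle markers was 0.53 in the same direction. The largest difference was that of EME1, at 1.001 ± 0.56 (SE). For FANCG it was 0.57 ± 0.14 and for BRCA1 0.54 ± 0.14. Without shNontarget array 1 the count was 27 and without array 2 it was 14, beside 45.1% and 46.2% of all genes, so that the result turned on these arrays.

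**Figure D4:**
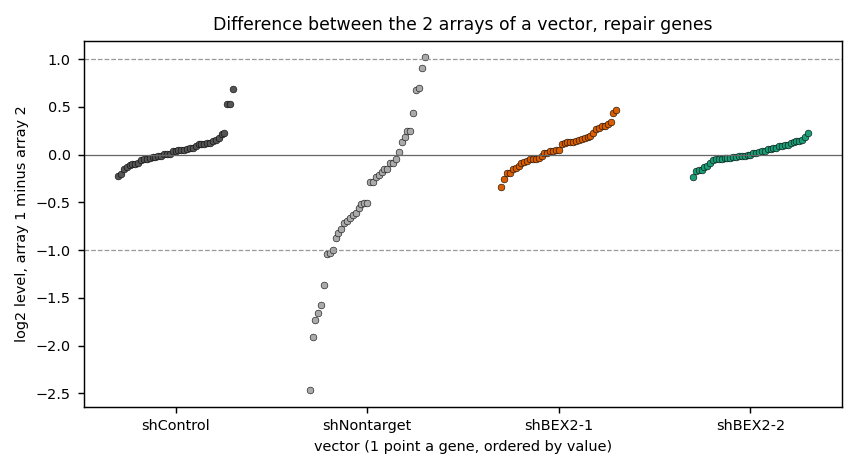
Difference of the log2 level between array 1 and array 2 (y axis) of each vector for the 41 repair genes, ordered by value, with dashed lines at a difference of 1. With shNontarget 9 of these genes lie beyond 1, beside 34.9% of all genes, and the points run from -2.46 to 1.02. For the other vectors 0 do, beside 0.562% to 1.76% of all genes.

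In the shNontarget pair, 9 of the 41 members differed by over 1 on the log2 scale, beside 34.9% of all genes. With the other vectors 0 did, beside 0.562% to 1.76% of all genes. The members were mostly higher on array 2, by a median of 0.50, while all genes were higher there by a median of 0.097. Against the shControl arrays alone, 30 members were higher in the knockdown, beside 17.2% of all genes, with a median log2 fold change of 1.10. The 3 that passed here and not over all 8 arrays were FANCG, EME1 and ATM. Against the shNontarget arrays alone, 11 were higher, beside 0.953% of all genes, with a median of 0.89. The 11 were FANCB, FANCL, FANCI, BRCA1, BRCA2, BRIP1, RAD51AP1, RAD54L, RAD54B, EXO1 and BLM. These passed under each of the 19 alternatives in which members were followed singly. The fit against shNontarget alone is 1 of the 19, and all of them reuse these arrays. Other alternatives were read by counts only. At a tested minimum log2 fold change of 1, 0 of the 41 members passed, beside 0.0538% of all genes.

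Other repair genes were set beside the members from lists of the same pathways and of other repair pathways. Of 51 other Fanconi, recombination and checkpoint genes tested, 19 rose and 2 fell, beside 6.68% and 6.25% of all genes. Their median log2 fold change was 0.49. CLSPN, which bridges ATR to CHEK1, measured -3.66 and -3.80 with shControl, -3.43 and -3.65 with shNontarget, -0.84 and -1.38 with shBEX2-1, and -0.53 and -0.99 with shBEX2-2. Its groups were far apart, and its log2 fold change of 2.70 ± 0.20 was above that of any member. CDC25A, the phosphatase that CHEK1 restrains, rose by 1.66 ± 0.26. WDR48, a cofactor of the FANCD2 deubiquitinase USP1, fell by 0.50, and RAD17, which loads the checkpoint clamp, by 0.72 on the log2 scale. The array design places the RAD17 probe at chr7:16904173-16904231, and whether it measured the gene or a copy elsewhere was not tested.

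Of 11 non-homologous end joining genes 1 rose, the ligase cofactor XRCC4 by 0.66 ± 0.14, and 1 fell, NHEJ1 by 0.69. The median was 0.40. The shares over all genes, 6.68% higher and 6.25% lower, stand beside this list and each list below, and 1 of 11 is near them. Of 7 mismatch repair genes 3 rose, the largest rise being that of PMS1 by 0.90 ± 0.24, and 0 fell, with a median of 0.22. Of 17 nucleotide excision repair genes 0 rose and 1 fell, the damage sensor XPC by 0.63 ± 0.16, with a median of 0.088. At an unadjusted p under 0.05 (limma) 2 passed, beside 27.8% of all genes. Of 20 base excision repair genes 5 rose and 1 fell, with a median of 0.069. The largest rise there was that of the glycosylase NEIL3, by 1.55 ± 0.25, and the fall was that of APEX1, the endonuclease at abasic sites, by 0.80. The difference in share between the lists was not tested.

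**Figure D5:**
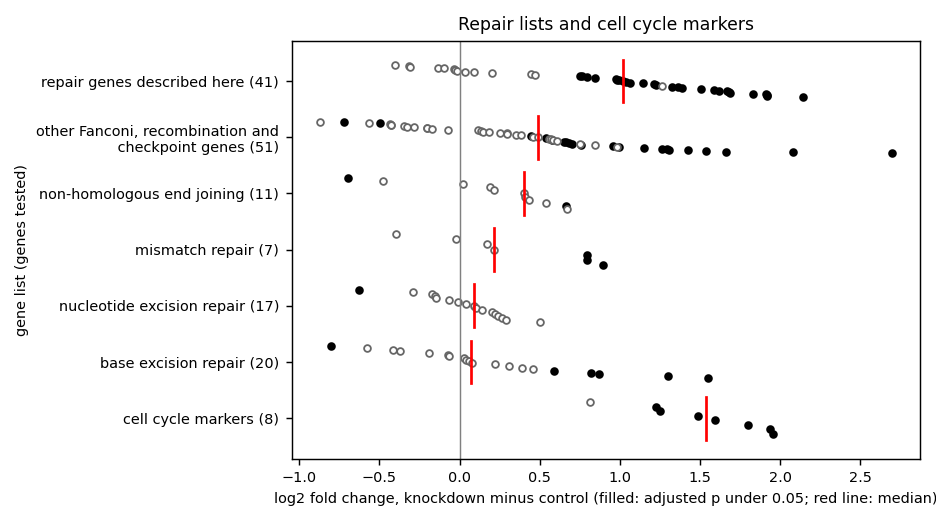
Log2 fold change of knockdown minus control (x axis) for each tested gene of the 7 lists (rows, number tested in brackets), filled where the adjusted p was under 0.05, with the list's median as a red line. The medians run from 0.069 for base excision repair to 1.02 for the 41 repair genes and 1.54 for the cell cycle markers.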

How the data were processed

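Total RNA was labelled with Cy3 by the authors, hybridized to Agilent arrays and read with Agilent Feature Extraction 10.7.3.1. The deposited intensity of each spot is background-subtracted and detrended within its array, with low values replaced by a surrogate (19.9% to 25.9% of spots), and carries no scaling from one array to another. A table of the whole series, also deposited as linear intensity, differs from it by at most 0.497% and served as an alternative. Here, control spots were left out, 3 to 15 non-uniform spots per array were set to missing, and log2 intensity minus the array's 75th percentile was used. Probes had to be well above background on 4 or more of the 8 arrays. The brightest probe stood for a gene, which left 20464 genes. Gene names and hg19 positions are those of the array design, and 40 of the 41 members are RefSeq symbols and 1, MRE11A, is a synonym.

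Tests used limma 3.58.1 in R 4.3.3 (lmFit, eBayes with a trend), with Benjamini-Hochberg adjustment over all genes, on 4 against 4 arrays and in a model of the 4 vectors. The code was checked on simulated data. The number of arrays limits the precision. Groups were taken from the labels. Since the submitters name a rank product, whose chance level comes from permuting genes within arrays, limma took its place. The main fits did not pair arrays. An alternative took the replicate number as a block, since each number carries a common day whose meaning is not given. The differences between replicates correlated across genes between vectors with r from -0.063 to 0.26. The members, lists and words were chosen with earlier results of these data known. Named genes are the 41 members, with values on every array for BEX2 and for up to 2 members per role with the largest called rise, then the 3 largest changes of the other Fanconi, recombination and checkpoint genes and the largest rise and fall of the other repair lists, of which 1 gene is not reported here. CLSPN and EME1 on every array, and the cell cycle and cell type markers, were named after their values were seen. Alternatives covered the scaling, background correction, probe filter, probe choice, blocks, control vector, test and left-out arrays. Genome annotation of hg19 was not used here.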

Additional observations from a re-analysis of the deposited data

Results flagged for a closer look

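In 84 groups of 4 arrays, for the 41 members and BEX2, the gap of the highest or lowest array to its neighbour was set against the range of the group. In 7 groups it was above Dixon's critical value for 4 values, where chance gives about 1 in 20. In 5 of them shNontarget array 2 was the high one among the control arrays. For FANCM the gap was 0.990 of the range, with a level of 0.10 against -0.93 to -0.92 on the other control arrays. For EME1 it was 0.965, with -0.92 against -2.90 to -2.83. For MUS81 it was 0.924, with 2.84 against 1.95 to 2.01. For RAD54L it was 0.913, with -0.04 against -0.89 to -0.81, and for FANCD2 it was 0.835, with 0.30 against -1.44 to -1.15. The remaining 2 were in the knockdown. FANCB was low on shBEX2-1 array 2, with a gap of 0.963 and a level of -1.58 against -1.30 to -1.28, and NBN was low on shBEX2-1 array 1, with a gap of 0.879 and a level of -1.43 against -1.12 to -1.07. The cause was not tested.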

How the results depend on the processing

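The count of 27 members higher in the knockdown and the median of 1.02 were recomputed under 22 alternatives. No called member changed sign in the 19 of them in which members were followed singly. The median stayed between 0.89 and 1.10, and the count stayed within 1.5 times of 27 with these exceptions. Against shNontarget alone it was 11, beside 0.953% of all genes. At a tested minimum log2 fold change of 1 it was 0, beside 0.0538% of all genes called. With each array left out in turn the count lay between 19 and 29, beside 3.2% to 12% of all genes. The count of lower members was then 0, beside 2.89% to 11.1% of all genes. The methods' t-test gave 31 higher and 1 lower, RAD50, at an unadjusted p under 0.05, beside 13.7% and 12.8% of all genes. After Benjamini-Hochberg adjustment it gave 20 and 0, beside 5.39% and 5.23%. With the replicate number as a block 26 members were higher, CHEK2 being lost, beside 6.32% of all genes. In shBEX2-1 cells 14 were higher and in shBEX2-2 cells 19, beside 2.5% and 4.09%. The block changed no count by over 1.5 times. The vector as a random block gave 27, beside 8.62% of all genes, with a consensus correlation of -0.14. With a negative correlation this fit does not allow for likeness between the arrays of a vector. It called 16.7% of all genes in either direction, against 12.9% in the main fit.

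For single sublines the counts moved most with the arrays used. Leaving out 1 array gave 0 to 31 members higher in shBEX2-1 cells, 0 to 33 in shBEX2-2 cells, 0 to 10 differing between the sublines, and 0 to 27 between the control vectors. Shares of all genes beside the counts of higher members are given above. With both shNontarget arrays out, an alternative chosen after seeing the data, 31 members were higher in each subline, beside 22.8% and 21.6% of all genes. Between the sublines 10 differed, beside 14.5%. Against shControl with the spread of all arrays the counts were 18 and 20, beside 2.59% and 3.82%. Of 779 values of single members under alternatives, 66 fell below the threshold and 6 rose above it. The number of arrays sets which changes could be called, and the probes of all 41 members were well above background on all 8 arrays.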
